A study of Mus musculus with 120 samples.

Results

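The genes described here are 35 genes of the cell cycle and of DNA replication, chosen by name for their function, with earlier results of these data known. They were followed in counts per gene from dissected mouse gastrulae and from mouse embryonic stem cells. All 35 were among the 23154 genes of each count table, and all 35 passed the filter on low counts in both tables. They are 6 genes of G1 and of entry into S phase (the cyclins Ccnd1, Ccnd2, Ccnd3, Ccne1 and Ccne2, and the transcription factor E2f1), 12 genes of DNA replication (Cdc6, Cdt1, Gmnn, Mcm2 to Mcm7, Pcna, Rrm1 and Rrm2) and 17 genes of mitosis (Mki67, Top2a, Ccna2, Ccnb1, Ccnb2, Cdk1, Aurka, Aurkb, Plk1, Bub1, Bub1b, Cenpa, Cenpe, Cenpf, Kif11, Kif20a and Tpx2).

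As background, a cell leaves G1 when D-type cyclins with their kinases release E2F factors from the retinoblastoma protein, and E2F then drives cyclin E and the replication genes. Cdc6 and Cdt1 load the ring of Mcm2 to Mcm7 onto DNA as the core of the replicative helicase. Geminin, the product of Gmnn, blocks Cdt1 once S phase has begun. Pcna is the sliding clamp of the polymerases, and Rrm1 with Rrm2 forms the enzyme that makes deoxynucleotides. Cyclins A and B with Cdk1, the Aurora and Polo kinases, the Bub checkpoint proteins, centromere proteins and kinesins then carry the cell through mitosis. The epiblast of the mouse gastrula is known for its very short cycles, trophoblast giant cells of the extra-embryonic lineage replicate DNA without dividing, and neural progenitors lengthen G1 as they begin to make neurons.

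RNA counts came from 28 libraries of a series of 120 samples. Of these, 18 were from embryos of the ICR strain, an outbred mouse stock, aged E6.5, E7.0 or E7.5 (days post coitum), with 2 libraries in each of 9 groups. Dissection separated the extra-embryonic tissue (ExE) from the embryonic part. The latter was kept whole at E6.5 (Epi), came as A and P pieces at E7.0, and as A, AM and P pieces at E7.5. The other 10 libraries were from E14/TG2A, a mouse embryonic stem cell line, either WT or KO, the KO cells having lost the enhancer named Enh9E to CRISPR-Cas9 deletion, undifferentiated (D0) or as neural progenitors on day 8 of neural differentiation (D8). There were 2 WT and 3 KO libraries on each day. The labels do not say whether replicates were separate embryos, pools, cultures or clones, and the p-values therefore rest on library-to-library spread, which may be partly technical. The position and target gene of Enh9E are not given in the labels, so the deletion was not checked.

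Libraries held 5.15 to 17.1 M (mega) counts in embryos and 5.96 to 13.2 M in cells, and the 35 genes together took 0.573 to 1.26% and 0.765 to 1.09% of them. The dissection was checked by marker genes, each list summed in CPM, which are counts per M on edgeR's TMM scale (trimmed mean of M values). The 6 extra-embryonic ectoderm genes reached 115 to 397 CPM in ExE and 7.69 to 217 in embryonic libraries, and within each stage every ExE library lay above every embryonic one. At E7.0 Eomes, a gene of this list, went the other way, at 171 to 216 CPM in P and 37.6 to 94.7 in ExE. It made up most of the P sum (mean 193 of 195 CPM). Elf5 and Tfap2c had means of 52.6 and 98.5 CPM in E7.0 ExE and of 0.0635 and 0.995 in E7.0 P. Visceral endoderm genes (7) were high in both parts and uneven, from 12.8 CPM in 1 E7.5 A library to 15850 in 1 E7.5 ExE library. In cells, 6 pluripotency genes summed to between 5839 and 6324 CPM at D0 and between 56.3 and 248 at D8, and 5 neural progenitor genes to between 43.2 and 59.0 CPM at D0 and between 480 and 925 at D8. Decidua genes (4) summed to at most 7.38 CPM in any library. In bulk libraries such as these, fewer dividing cells and less RNA per cell cannot be told apart.

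Promoter windows of 5 of the genes are printed here because these genes carry the comparisons that follow. They come from RefSeq (GRCm38.p6, the assembly that mm10 names), run 5′ to 3′ in the direction of the gene from 250 bases before to 50 after a start, and capitals mark 3 short motifs on either strand. The motifs are TTTNNCGC, a form of the E2F site, TTTGAA, a form of the cell cycle homology region bound by the MuvB complex, and CCAAT, the box bound by NF-Y. Matches on opposite strands may overlap, as the first E2F match of Mcm6 does, where a run of 12 capitals holds 2. Mcm6 (chr1:128359656-128359955, minus strand) and Mcm3 (chr1:20820263-20820562, minus strand) are shown for the helicase genes, Cdc6 (chr11:98907901-98908200, plus strand) as a gene called higher in KO than in WT at D8, Cdk1 (chr10:69352863-69353162, minus strand) as a window with all 3 motifs, and Plk1 (chr7:122159185-122159484, plus strand) for the mitotic kinases.
Mcm6: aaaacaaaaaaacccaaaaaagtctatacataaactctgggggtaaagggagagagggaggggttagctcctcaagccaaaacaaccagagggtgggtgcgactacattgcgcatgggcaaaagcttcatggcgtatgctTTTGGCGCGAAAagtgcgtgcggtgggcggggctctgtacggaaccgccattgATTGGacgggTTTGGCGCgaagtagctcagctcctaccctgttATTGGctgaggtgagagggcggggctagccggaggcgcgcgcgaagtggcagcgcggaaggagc
Mcm3: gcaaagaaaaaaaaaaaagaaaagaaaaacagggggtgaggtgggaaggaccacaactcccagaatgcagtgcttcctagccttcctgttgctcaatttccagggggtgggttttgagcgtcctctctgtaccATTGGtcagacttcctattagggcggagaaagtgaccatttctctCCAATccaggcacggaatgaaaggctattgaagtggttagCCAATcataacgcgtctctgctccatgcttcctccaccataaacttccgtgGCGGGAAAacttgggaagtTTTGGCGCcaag
Cdc6: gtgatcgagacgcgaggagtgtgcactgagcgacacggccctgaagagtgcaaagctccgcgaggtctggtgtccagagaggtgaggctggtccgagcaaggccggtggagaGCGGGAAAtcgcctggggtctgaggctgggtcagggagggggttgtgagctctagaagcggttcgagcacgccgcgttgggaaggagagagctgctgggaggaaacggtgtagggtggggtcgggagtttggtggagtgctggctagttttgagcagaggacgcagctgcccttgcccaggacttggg
Cdk1: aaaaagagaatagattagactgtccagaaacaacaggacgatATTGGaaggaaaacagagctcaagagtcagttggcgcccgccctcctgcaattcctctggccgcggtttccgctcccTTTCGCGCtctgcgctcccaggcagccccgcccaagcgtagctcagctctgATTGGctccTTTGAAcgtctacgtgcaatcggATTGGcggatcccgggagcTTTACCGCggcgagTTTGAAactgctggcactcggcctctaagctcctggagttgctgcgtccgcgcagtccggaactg
Plk1: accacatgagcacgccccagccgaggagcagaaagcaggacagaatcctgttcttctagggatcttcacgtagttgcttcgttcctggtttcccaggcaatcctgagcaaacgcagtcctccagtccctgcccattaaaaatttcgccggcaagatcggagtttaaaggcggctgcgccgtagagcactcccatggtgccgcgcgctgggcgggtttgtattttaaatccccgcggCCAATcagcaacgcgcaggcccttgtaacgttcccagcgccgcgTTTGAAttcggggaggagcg
Windows were found for 26 of the 35 genes, 28 windows in all, beside 32851 windows for all genes. TTTNNCGC lay in 6 of 11 windows of replication genes (54.5%), in 1 of 13 windows of mitosis genes (7.69%) and in 5.17% of all windows. TTTGAA showed the opposite split, with 1 of 11 replication windows (9.09%), 10 of 13 mitosis windows (76.9%) and 17.9% of all. CCAAT lay in 9 of 11 and 13 of 13 windows, against 37.4% of all windows. None of the 4 windows of G1 genes held TTTNNCGC or TTTGAA, and 1 held CCAAT. These are letter matches, not measured binding.

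The first question was how the cycle genes differ between the extra-embryonic and the embryonic part. At E6.5 the widest differences were those of Ccnd1 and Ccnd2, D-type cyclins, which with Cdk4 and Cdk6 start the passage through G1. Ccnd1 (chr7:144929931-144939831) was at 131 and 148 CPM in Epi and at 3.87 and 3.24 CPM in ExE at E6.5. That is 38.9-fold lower in ExE (log2 -5.28 ± 0.45, edgeR adjusted p = 5.12e-06; the error here and below is 1 standard error of the fit). At E7.0 its levels were 108 and 111 CPM in A, 137 and 109 in P and 22.2 and 48.1 in ExE (log2 -1.73 ± 0.34, edgeR adjusted p = 0.00265). At E7.5 they were 114 and 169.8 CPM in A, 83.6 and 92.2 in AM, 119 and 163 in P and 52.4 and 28.4 in ExE (log2 -1.58 ± 0.33, edgeR adjusted p = 0.00283). Both ExE libraries lay below every embryonic library at each stage, and the ExE values of E7.0 and E7.5 lay above those of E6.5. Without the second ExE library of E7.5 the E7.5 difference no longer passed (adjusted p = 0.0979).

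Ccnd2 (chr6:127125162-127152188) differed most between stages. In ExE it stood at 1.8 and 0.564 CPM at E6.5, 14.7 and 38.9 at E7.0 and 174 and 120.0 at E7.5. In the embryonic part it stood at 22.3 and 15.3 CPM in Epi, 6.39 and 46.2 in E7.0 A, 26.4 and 102 in E7.0 P, 111 and 124 in E7.5 A, 222 and 279 in AM and 342 and 335 in E7.5 P. The 2 E7.0 libraries of each embryonic region lay far apart, while all E7.5 libraries lay above all E6.5 libraries of the same part. Ccnd2 was lower in ExE than in Epi at E6.5 (log2 -3.89 ± 0.95, edgeR adjusted p = 0.0232), on 20 and 4 counts in the 2 ExE libraries, and this call was lost when any 1 of the 4 libraries was left out (adjusted p up to 0.165). Differences in Ccnd2 between ExE and the embryonic part did not pass at E7.0 (log2 -0.62 ± 0.69, edgeR adjusted p = 0.559) or at E7.5 (log2 -0.55 ± 0.64, edgeR adjusted p = 0.585).

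Ccnd3 (chr17:47505051-47599689), the third D-type cyclin, showed no called difference in any embryo comparison. It was at 105 and 121 CPM in Epi and 103 and 134 in ExE at E6.5. At E7.0 it was at 15.2 and 66.1 CPM in A, 57.4 and 58.5 in P and 51.9 and 20.9 in ExE. At E7.5 it was at 63.6 and 113 CPM in A, 54.8 and 145 in AM, 49.9 and 163 in P and 84.2 and 59.5 in ExE. ExE overlapped embryonic libraries at each stage, at E7.0 through A but not P. Replicates of A at E7.0 and of AM and P at E7.5 lay further apart than most group means.

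**Figure D1:**
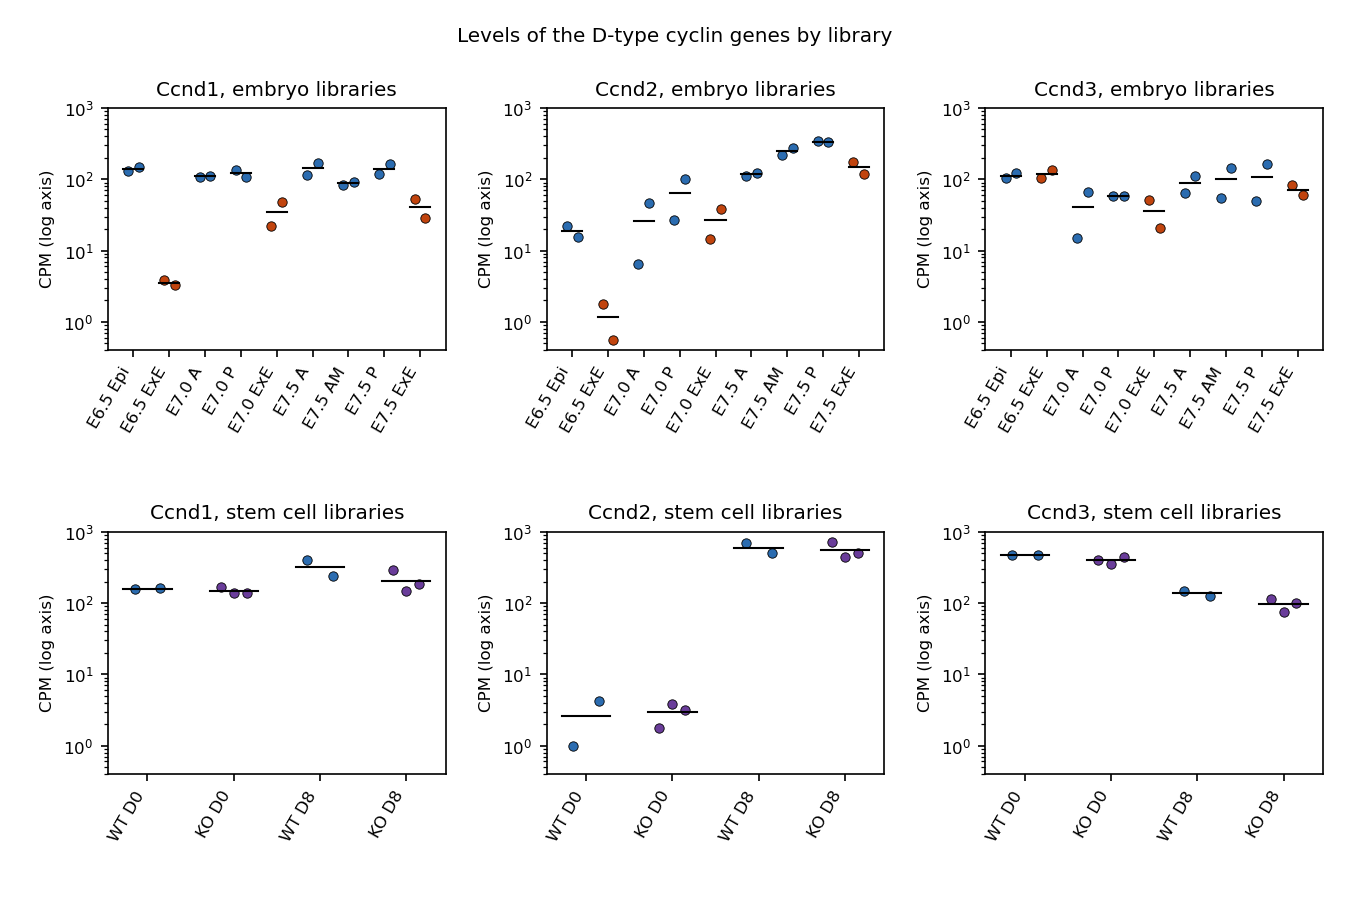
Levels of Ccnd1, Ccnd2 and Ccnd3 in CPM (vertical log axis) by group (horizontal axis) in the 18 embryo libraries (top) and the 10 stem cell libraries (bottom); each point is a library, red for ExE, purple for KO and blue for the others, and each bar is the group mean. Ccnd1 points of ExE lie below the embryonic points at each stage, and Ccnd2 points lie between 0.988 and 4.20 CPM at D0 and between 437 and 714 CPM at D8.

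At all 3 stages the median difference of the 35 genes lay below 0 in ExE. At E6.5, 7 were lower and 0 higher in ExE (20% called, against 8.93% of all 14403 genes, 3.69% higher and 5.24% lower), and the median log2 fold change of the 35 was -0.81, against 0.03 over all genes. At E7.0, 7 were lower and 0 higher (20%, against 18.2% of all genes, 10% higher and 8.14% lower), with a median of -0.58 against -0.04. At E7.5, 11 were lower and 1 was higher (34.3%, against 21.3% of all genes, 13.4% higher and 7.91% lower), with a median of -0.42 against -0.02. Ccnd1, Kif20a, Mcm3 and Mcm6 were called lower at all 3 stages. DESeq2 called 17 genes at E6.5, all lower, 10 at E7.0, all lower, and 13 at E7.5, of which 1 was higher.

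Genes of the Mcm helicase were among those called at each stage. Mcm6 was at 825 and 504 CPM in Epi and 209 and 239.8 in ExE at E6.5 (log2 -1.57 ± 0.38, edgeR adjusted p = 0.0156). At E7.0 it was at 412 and 531 CPM in A, 494 and 536 in P and 281 and 119 in ExE (log2 -1.30 ± 0.34, edgeR adjusted p = 0.0153). At E7.5 it was at 627 and 480.1 CPM in A, 414 and 448 in AM, 568 and 723 in P and 241 and 288 in ExE (log2 -1.02 ± 0.32, edgeR adjusted p = 0.0321). Both ExE libraries lay below all embryonic libraries at each stage. Mcm3, its partner in the ring, was at 479 and 411 CPM in Epi and 148 and 152 in ExE at E6.5, again with no overlap (log2 -1.57 ± 0.30, edgeR adjusted p = 0.00345). Its log2 difference was -1.16 ± 0.27 at E7.0 and -1.05 ± 0.26 at E7.5, both called. Mcm2 passed at E7.0 with some overlap between groups (log2 -1.09 ± 0.36, edgeR adjusted p = 0.0454), and Mcm4 and Mcm7 at E7.5. Mcm7 at E7.5 was at 367 and 459 CPM in A, 235 and 423 in AM, 327 and 674 in P and 183 and 204 in ExE (log2 -1.07 ± 0.37, edgeR adjusted p = 0.0493), all embryonic values above the ExE values. Mcm5 passed at none of the 3 stages (log2 -1.03 ± 0.33, -0.44 ± 0.28 and -0.74 ± 0.28).

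Of the loading factors, Cdc6 and Cdt1 passed at none of the 3 stages. Geminin went the other way from the helicase at E7.5. Gmnn was at 195 and 172 CPM in A, 138 and 142 in AM, 196 and 212 in P and 233 and 375 in ExE, 1.75-fold higher in ExE (log2 0.81 ± 0.21, edgeR adjusted p = 0.0135). Both ExE libraries lay above all 6 embryonic libraries, the lower of them by little. The call was lost with total counts as the scaling (adjusted p = 0.213), with no filter on low counts (0.0736) and without the second ExE library (0.434). Gmnn did not pass at E6.5 (log2 0.52 ± 0.28) or at E7.0 (log2 0.17 ± 0.24). Of the nucleotide and clamp genes, Rrm1 was lower in ExE at E6.5 (log2 -1.08 ± 0.29, edgeR adjusted p = 0.0271) and at E7.5 (log2 -0.97 ± 0.25, edgeR adjusted p = 0.011), Rrm2 at E6.5 (log2 -1.28 ± 0.36, edgeR adjusted p = 0.0362), and Pcna at no stage (log2 -0.88 ± 0.30, -0.50 ± 0.26 and 0.11 ± 0.24).

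Among the mitosis genes, Kif20a, a kinesin of the central spindle that serves the last step of division, had the widest difference. It was at 250.5 and 127 CPM in Epi and 32.3 and 61.6 in ExE at E6.5 (log2 -2.01 ± 0.56, edgeR adjusted p = 0.0334). At E7.0 it was at 134 and 109 CPM in A, 166 and 145 in P and 72.4 and 13.1 in ExE (log2 -1.67 ± 0.50, edgeR adjusted p = 0.0315). At E7.5 it was at 218 and 173 CPM in A, 156 and 145 in AM, 202 and 209.5 in P and 41.5 and 64.5 in ExE (log2 -1.78 ± 0.49, edgeR adjusted p = 0.0169). ExE was below the embryonic libraries at each stage, but as a ratio the 2 ExE libraries of E7.0 lay further apart than the first of them did from any embryonic library. Bub1, a checkpoint kinase, and Aurkb, the kinase that corrects attachment of chromosomes to the spindle, were lower in ExE at E7.0 (log2 -0.95 ± 0.29 and -0.85 ± 0.25) and at E7.5 (log2 -0.95 ± 0.28 and -0.80 ± 0.24). Plk1 and Bub1b were lower at E7.5 (log2 -0.85 ± 0.29 and -0.71 ± 0.22), Plk1 with overlap between groups. Mki67, Top2a, Ccna2, Ccnb1, Ccnb2, Cdk1, Aurka, Cenpa, Cenpe, Cenpf, Kif11 and Tpx2 passed at none of the 3 stages. Over all genes that did not pass, log2 differences ran from -1.26 for Mcm7 to 0.52 for Gmnn at E6.5, from -1.11 for Mcm7 to 0.29 for Ccne2 at E7.0 and from -0.89 for Kif11 to 0.61 for Cdk1 at E7.5.

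These counts turned on single libraries. At E6.5 the 7 calls became 1 (Ccnd1) without the first ExE library, 2 without the second ExE library or the first Epi library, 4 with total-count scaling, and 21 when Epi and ExE alone were fitted. At E7.0 the 7 became 1 (Ccnd1) without the second ExE library, which is the shallowest embryo library at 5.15 M counts, 12 without the first, 4 without either P library or with total counts, 10 with a replicate block, and 2 when E7.0 libraries alone were fitted. At E7.5 the 12 became 0 without the second ExE library and 7 without the first. The medians stayed below 0 under total-count scaling, at -0.49, -0.34 and -0.73, while that scaling moved the median of all genes to 0.36, 0.14 and -0.33 at the 3 stages.

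**Figure D2:**
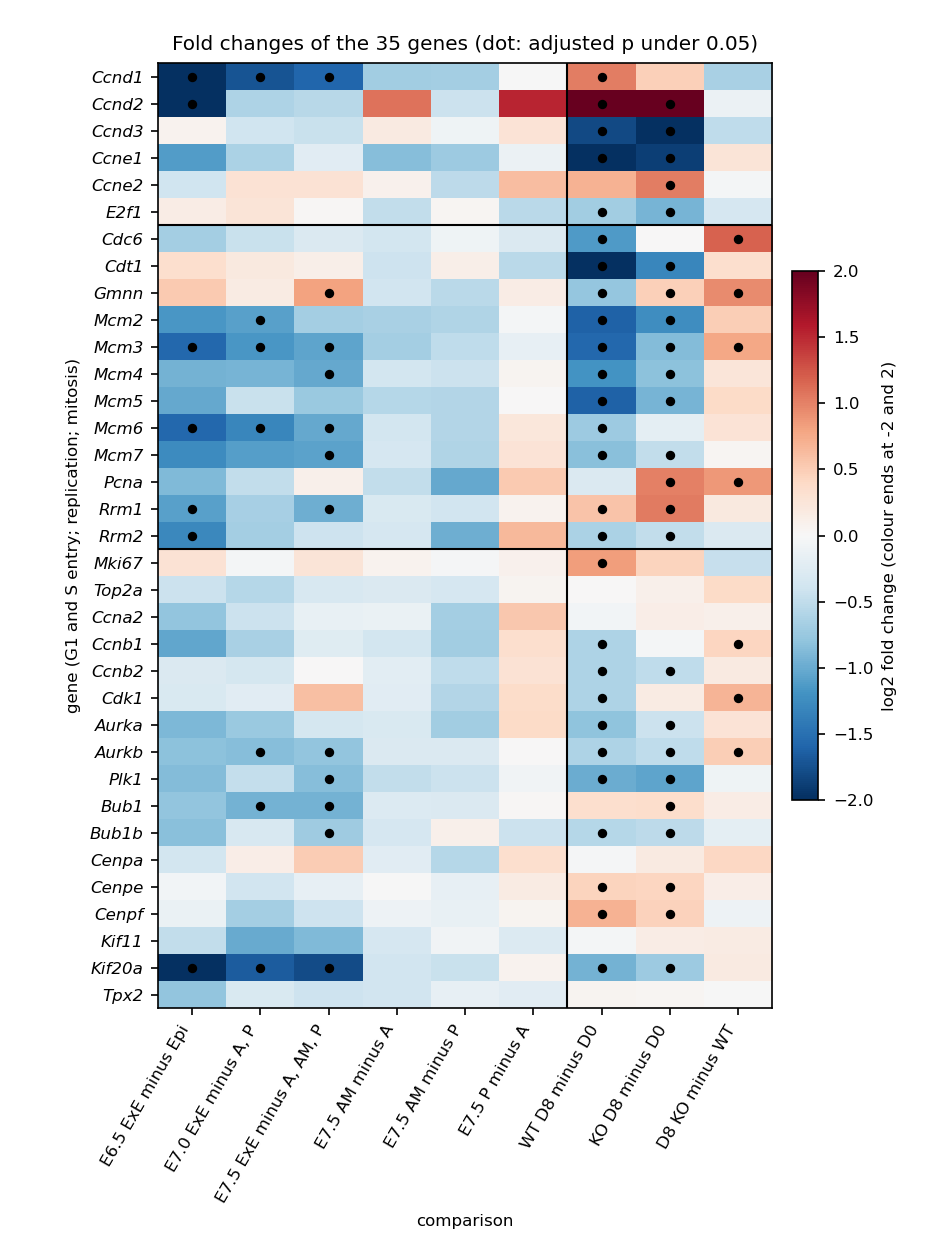
Log2 fold changes of the 35 genes (rows, grouped by role) in 9 comparisons (columns); red is higher and blue lower in the first-named group, colours end at log2 values of -2 and 2, and a black dot marks an adjusted p under 0.05. The ExE columns are mostly blue in the helicase rows, the 3 columns between embryonic regions hold no dot, and the D8 minus D0 columns hold 27 dots for WT and 24 for KO.

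The wider pathway was read from 4 more lists. Of 38 other replication genes, 6 were lower and 0 higher in ExE at E6.5, 5 and 0 at E7.0, and 4 and 2 at E7.5, with medians of -0.50, -0.46 and -0.12. That is 15.8%, 13.2% and 15.8% of the list called, against 8.93%, 18.2% and 21.3% of all genes, so at E7.0 and E7.5 the share was below that of all genes. Dut, which keeps uracil out of DNA, and Rpa1, the large subunit of the single-strand binding protein, led at E6.5 (log2 -1.31 ± 0.33 and -1.20 ± 0.32). Pola1, the priming polymerase, and Cdc7, the kinase that fires origins, led at E7.0 (log2 -1.18 ± 0.33 and -1.13 ± 0.34). At E7.5 Pold3 and Rpa1 were lower (log2 -1.11 ± 0.21 and -0.99 ± 0.27), and Gins1 and Rpa3 were higher (log2 0.75 ± 0.25 and 0.74 ± 0.26), both lost with total counts and without any 1 of the 8 libraries. Of 38 other mitosis genes, 2 were lower at E6.5 and 3 at E7.0 with 0 higher, while at E7.5 4 were lower and 3 higher, with medians of -0.23, -0.37 and -0.21 and shares called of 5.26%, 7.89% and 18.4%, below those of all genes at each stage. The kinesins Kif2c and Kif22 were lower at E6.5 (log2 -1.47 ± 0.29 and -1.41 ± 0.42), and the condensin subunit Ncapg led at E7.0 (log2 -1.74 ± 0.49). At E7.5 Pttg1, which encodes securin, and Birc5, which encodes survivin, were higher in ExE (log2 1.46 ± 0.32 and 1.02 ± 0.26), and Cdc25c and Ncapd2 were lower (log2 -1.03 ± 0.28 and -0.87 ± 0.25). Without the second ExE library the replication list gave 1 call at E6.5, 0 at E7.0 and 1 at E7.5, and the mitosis list gave 0 at each stage. Without the first ExE library of E7.0 they gave 15 and 11, all lower, and with total counts the replication list gave 1, 1 and 7, all lower.

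The 15 other drivers were kinases, Cdc25a, E2F factors and their partners, Foxm1 and Mybl2 (medians -0.21, -0.22 and -0.07). Of these, 6.67%, 13.3% and 13.3% were called, below the 8.93%, 18.2% and 21.3% of all genes. Mybl2 was higher in ExE at every stage. This activator of mitosis genes was at 45.2 and 44.3 CPM in Epi and 136 and 136 in ExE at E6.5, and both ExE libraries lay above both Epi libraries (log2 1.60 ± 0.31, edgeR adjusted p = 0.00342). It was also higher at E7.0 (log2 1.55 ± 0.25, edgeR adjusted p = 6.60e-04) and E7.5 (log2 1.5 ± 0.23, edgeR adjusted p = 3.01e-04). Tfdp2, a partner of E2F factors, was lower in ExE at E7.0 and E7.5 (log2 -1.08 ± 0.31 and -1.15 ± 0.30). Of 14 inhibitors of the cycle, 12 passed the filter on low counts (Cdkn2a and Cdkn2c did not), with medians of 0.33, 0.51 and -0.37 and 16.7% called at each stage. That share was above that of all genes at E6.5 and below it at E7.0 and E7.5. Cdkn1c, an inhibitor of G1 kinases that is known for a role in trophoblast giant cells, was higher in ExE at every stage. It was at 4.87 and 6.95 CPM in A, 5.52 and 6.09 in P and 42.2 and 76.9 in ExE at E7.0, with no overlap (log2 3.35 ± 0.45, edgeR adjusted p = 1.28e-04). Its differences at E6.5 and E7.5 were log2 2.28 ± 0.56 and 1.62 ± 0.40, and at E7.5 the first AM library, at 49.3 CPM, lay above the first ExE library, at 44.4. Btg2, which slows division, was lower in ExE at E6.5 and E7.0 (log2 -1.63 ± 0.46 and -1.33 ± 0.40), and Cdkn2d was higher at E7.5 (log2 1.05 ± 0.31). Of these calls, those of Mybl2 and Cdkn1c at E7.0 and of Mybl2 at E7.5 passed without any 1 library, and the others were each lost without at least 1. With total counts neither Cdkn1c nor Cdkn2d passed at E7.5 (adjusted p = 0.0911 and 0.133), Btg2 passed at neither E6.5 nor E7.0 and Tfdp2 did not pass at E7.0.

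Some markers of other cells moved with the same split. The 6 genes of giant cells and the ectoplacental cone summed to 87.8 to 495 CPM in ExE and to 6.96 to 58.8 in embryonic libraries. At E7.0 the ExE sum was mostly Plac1 (mean 283 CPM), with Ascl2 at 36.4 and Hand1 at 16.1. Prl3d1, Prl2c2 and Tpbpa had means of 0.297, 0.270 and 0.0273 CPM there, and Prl3d1 was higher in E7.0 P (mean 4.35). These 3 were also low in ExE at E6.5 (means of 1.71, 0.0705 and 0 CPM). Visceral endoderm genes ran from 4748 to 7025 CPM in ExE and 3190 to 5430 in Epi at E6.5, from 5079 to 6236 in ExE and 1408 to 3363 in A and P at E7.0, and from 13340 to 15850 in ExE and 12.8 to 6963 elsewhere at E7.5. Blood and vessel genes (6) reached 113 to 164 CPM in E7.5 ExE and at most 64.6 in any other group. Whether these cells carry the lower values of the cycle genes was not tested.

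Within the embryonic part, no member passed between regions. P minus A at E7.0 gave 0 calls by edgeR and 0 by DESeq2 (0.00694% of all genes called, 0.00694% higher and 0% lower), with 0 members at an unadjusted p under 0.05. P minus A at E7.5 gave 0 by both tools (0.236% of all genes, 0.201% higher and 0.0347% lower), again with 0 at an unadjusted p under 0.05. The smallest p values were those of E2f1 at E7.0 (log2 1.0 ± 0.55, unadjusted p = 0.0835, edgeR adjusted p = 1) and Ccnd2 at both stages (log2 1.29 ± 0.78, unadjusted p = 0.12 at E7.0; log2 1.52 ± 0.77, unadjusted p = 0.0693 at E7.5). Rrm2 came next at E7.5 (log2 0.65 ± 0.36, unadjusted p = 0.0884). Both E7.5 P libraries lay above both E7.5 A libraries for Ccnd2, which passed when no filter on low counts was applied (edgeR adjusted p = 0.0105).

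The region AM had the lowest summed replication levels of the E7.5 embryonic part. The 12 replication genes summed to 3108 and 3684 CPM in AM, 4778 and 4447 in A and 4705 and 6065 in P. Both AM libraries lay below the other 4, and no member passed. AM minus A gave 0 calls by edgeR and by DESeq2 (1.57% of all genes called, 1.15% higher and 0.417% lower), 2 members at an unadjusted p under 0.05 and a median of -0.34 against 0.02 over all genes, with 31 of 35 log2 values below 0. AM minus P gave 0 calls by edgeR and 1 by DESeq2, Pcna (0.111% of all genes called by edgeR, 0.0417% higher and 0.0694% lower), 3 members at an unadjusted p under 0.05 and a median of -0.45 against 0.02, with 32 of 35 below 0. Both comparisons share the AM libraries. The smallest p values were those of Ccne1 and Mcm3 against A (log2 -0.86 ± 0.37, unadjusted p = 0.0318, and log2 -0.68 ± 0.30, unadjusted p = 0.035; edgeR adjusted p = 0.39 and 0.405), and of Pcna and Rrm2 against P (log2 -1.02 ± 0.30, unadjusted p = 0.00346, and log2 -0.98 ± 0.36, unadjusted p = 0.0149; edgeR adjusted p = 0.346 and 0.588).

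Pcna was at 396 and 431 CPM in AM, 659 and 505 in A and 746 and 935 in P, so AM was lowest without overlap. Under total counts the median of the 35 against P was -0.01, while that of all genes went to 0.46. Pluripotency genes also summed to the lowest values in AM (43.1 to 125 CPM, against 197 to 514 in A and P). In P this sum was mostly Pou5f1 (mean 320.8 CPM), with Nanog at 25.15 and Tfcp2l1 at 7.069. The sums therefore do not show that each of the 6 genes was lowest in AM. Mesoderm and streak genes (5) stood at 78.0 to 152 CPM in AM, 12.2 to 59.2 in A and 487 to 622 in P. Visceral endoderm genes separated AM from A without overlap (1296 and 6963 CPM in AM, 12.8 and 542 in A), with P at 509.7 and 6399. The part of these cell types in the lower cycle values was not tested. Of the 4 wider lists, 1 gene passed: the inhibitor Cdkn1a was at 6.93 and 6.89 CPM in AM, 16.8 and 21.6 in A and 58.5 and 40.4 in P, and was lower in AM than in P (log2 -2.84 ± 0.43, edgeR adjusted p = 0.0227), a call lost without either AM library or the first P library, with total counts and when AM and P libraries alone were fitted (adjusted p up to 0.281).

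Over time the D-type cyclins were again the genes that passed. In the embryonic part, E7.5 (A, AM and P) minus E6.5 Epi gave 1 call of 35 (2.86%, against 2.63% of all genes, 1.07% higher and 1.56% lower), Ccnd2, which was higher at E7.5 (log2 3.52 ± 0.78, edgeR adjusted p = 0.0316). That call was lost when any 1 of the 8 libraries was left out (adjusted p from 0.0574 to 0.404), though the difference stayed between log2 3.27 and 3.89 under every alternative. In ExE, E7.5 minus E6.5 gave 2 calls (5.71%, against 0.972% of all genes, 0.93% higher and 0.0417% lower), both higher. Ccnd2 rose 116-fold (log2 6.86 ± 1.03, edgeR adjusted p = 0.00638), from 20 and 4 counts at E6.5, and the call was lost without either E6.5 ExE library (adjusted p = 0.118 and 0.174). Ccnd1 rose 11.3-fold (log2 3.50 ± 0.42, edgeR adjusted p = 4.09e-04) and passed without any 1 library. The gap of Ccnd1 between ExE and the embryonic part narrowed from E6.5 to E7.5 by a test of the difference itself (log2 3.70 ± 0.49, edgeR adjusted p = 0.00551), the only member called there (2.86%, against 0.187% of all genes, 0.16% higher and 0.0278% lower). It was not called without either E6.5 ExE library (adjusted p = 0.0893 and 0.0689). Medians of the 35 changed sign with total-count scaling in these comparisons (embryonic part -0.12 to 0.28, ExE 0.24 to -0.06), so no direction is given for the group. Of the wider lists, E2f4 fell in the embryonic part (log2 -1.06 ± 0.24, edgeR adjusted p = 0.024), a call lost without any 1 of 5 libraries and with total counts (adjusted p up to 0.273). No other gene of those lists passed by edgeR.

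The second question was what neural differentiation does to these genes. From D0 to D8 in WT cells, 21 of the 35 fell and 6 rose (77.1% called, against 57.2% of all 14629 genes, 29.3% lower and 27.9% higher). The median was -0.62 against -0.05 over all genes. The replication genes moved together: 10 of 12 fell and 1, Rrm1, rose, leaving Pcna as the gene that did not pass (log2 -0.29 ± 0.24). The mitosis genes divided, with 8 of 17 lower and 3 higher, and so did the G1 genes, with 3 lower and 2 higher. With total counts as the scaling the split was 11 lower and 8 higher, with a median of -0.32 against 0.25 for all genes. Without the first D0 library 14 fell and 2 rose, and without the first D8 library 13 fell and 4 rose.

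Each D-type cyclin took its own course. Ccnd2 was at 0.988 and 4.2 CPM at D0 and 697 and 506 at D8, 238-fold higher (log2 7.90 ± 0.52, edgeR adjusted p = 7.40e-07), on 8 and 29 counts at D0. Ccnd3 was at 475 and 480.4 CPM at D0 and 146 and 127 at D8, 3.49-fold lower (log2 -1.80 ± 0.20, edgeR adjusted p = 2.34e-05). Ccnd1 was at 157 and 161 CPM and 408 and 241, 2.04-fold higher (log2 1.03 ± 0.30, edgeR adjusted p = 0.0116), a call that was lost without either D0 library or the first D8 library (adjusted p up to 0.1). The days did not overlap for any of the 3. Ccne1, an E-type cyclin, fell from 253 and 305 CPM to 51.3 and 52.8, 5.36-fold (log2 -2.42 ± 0.15, edgeR adjusted p = 5.50e-07), and E2f1 fell as well (log2 -0.69 ± 0.18). Ccne2 did not pass (log2 0.69 ± 0.31).

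Of the replication genes Cdt1 fell most, from 268 and 276 CPM to 56.3 and 74.5 (4.15-fold, log2 -2.05 ± 0.18, edgeR adjusted p = 3.43e-06). All 6 helicase genes fell, from 1.66-fold for Mcm6 to 3.07-fold for Mcm2. Cdc6 fell 2.19-fold, Gmnn 1.71-fold and Rrm2 1.54-fold. Rrm1 went against its partner subunit, from 234 and 282 CPM to 395 and 373 (log2 0.57 ± 0.15, edgeR adjusted p = 0.00726). Among the mitosis genes Plk1, Kif20a, Aurka, Cdk1, Ccnb1, Ccnb2, Aurkb and Bub1b fell, from 1.49-fold for Bub1b to 1.98-fold for Plk1. Mki67, which coats mitotic chromosomes and is used as a mark of cycling cells, rose from 246 and 286 CPM to 505 and 443 (log2 0.83 ± 0.24, edgeR adjusted p = 0.0125). The centromere genes Cenpf, from 181 and 197 CPM to 332 and 282, and Cenpe, from 128 and 121 to 177 and 162, rose too (log2 0.70 ± 0.21 and 0.45 ± 0.14). For these 4 risers both D8 libraries lay above both D0 libraries, but each call was lost without at least 1 of the WT libraries (the first D0 library for Rrm1, Mki67 and Cenpf, the first D8 library for Cenpf and the second D0 library for Cenpe; adjusted p from 0.0534 to 0.081). Top2a, Ccna2, Bub1, Cenpa, Kif11 and Tpx2 did not pass, and over all 8 genes that did not pass log2 values ran from -0.29 for Pcna to 0.69 for Ccne2.

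In KO cells 16 members fell and 8 rose (68.6%, against 64.5% of all genes, 31.1% lower and 33.4% higher), and the median was -0.04 against 0.05 over all genes. Ccnd2 went from 1.78, 3.89 and 3.16 CPM to 714, 437 and 504 (log2 7.51 ± 0.41, edgeR adjusted p = 1.25e-07), Ccnd3 from 407, 358 and 446 to 114, 74.8 and 100.3 (log2 -2.06 ± 0.17, edgeR adjusted p = 1.66e-06), and Ccnd1, which did not pass, from 168, 139 and 140.0 to 287, 149 and 187 (log2 0.48 ± 0.24, edgeR adjusted p = 0.103). Days overlapped for Ccnd1 but not for Ccnd2 and Ccnd3. Ccne1 fell from 227, 237 and 222 CPM to 66.6, 61.0 and 58.6 (log2 -1.88 ± 0.12), Cdt1 from 196, 198 and 220.2 to 92.5, 73.5 and 81.4 (log2 -1.31 ± 0.14), and the low-level Ccne2 rose from 5.8, 4.92 and 3.71 to 9.62, 8.64 and 10.9 (log2 1.03 ± 0.25, edgeR adjusted p = 0.00409). None of these 3 overlapped between days.

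Of the 12 replication genes 7 fell in KO cells and 3 rose. Rrm1 rose from 198, 227 and 215 CPM to 421, 465 and 435 (log2 1.04 ± 0.12, edgeR adjusted p = 2.79e-05). Pcna rose from 425, 392 and 376 CPM to 578, 1065 and 758 (log2 1.01 ± 0.20, edgeR adjusted p = 9.69e-04). Gmnn rose from 98.6, 93.6 and 87.4 CPM to 102, 167 and 119 (log2 0.47 ± 0.17, edgeR adjusted p = 0.0336). All KO D8 libraries lay above all KO D0 libraries for these 3 genes, Gmnn narrowly so. Cdc6 (log2 0.01 ± 0.11) and Mcm6 (log2 -0.20 ± 0.12) did not pass, while the other 5 helicase genes fell, from 1.41-fold for Mcm7 to 2.38-fold for Mcm2. Of the 17 mitosis genes, Ccnb2, Aurka, Aurkb, Plk1, Bub1b and Kif20a fell and Bub1, Cenpe and Cenpf rose. Bub1 went from 118, 112 and 119 CPM to 156, 148 and 139, Cenpe from 129, 144 and 142 to 202, 178 and 178, and Cenpf from 188, 219 and 218 to 363, 222 and 272 (log2 0.34 ± 0.12, 0.42 ± 0.11 and 0.46 ± 0.17). The 11 members that did not pass ran from -0.20 for Mcm6 to 0.48 for Ccnd1. The calls of Gmnn, Cenpf and Bub1 were each lost without any 1 of several KO libraries (highest adjusted p = 0.145, 0.126 and 0.0812).

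**Figure D3:**
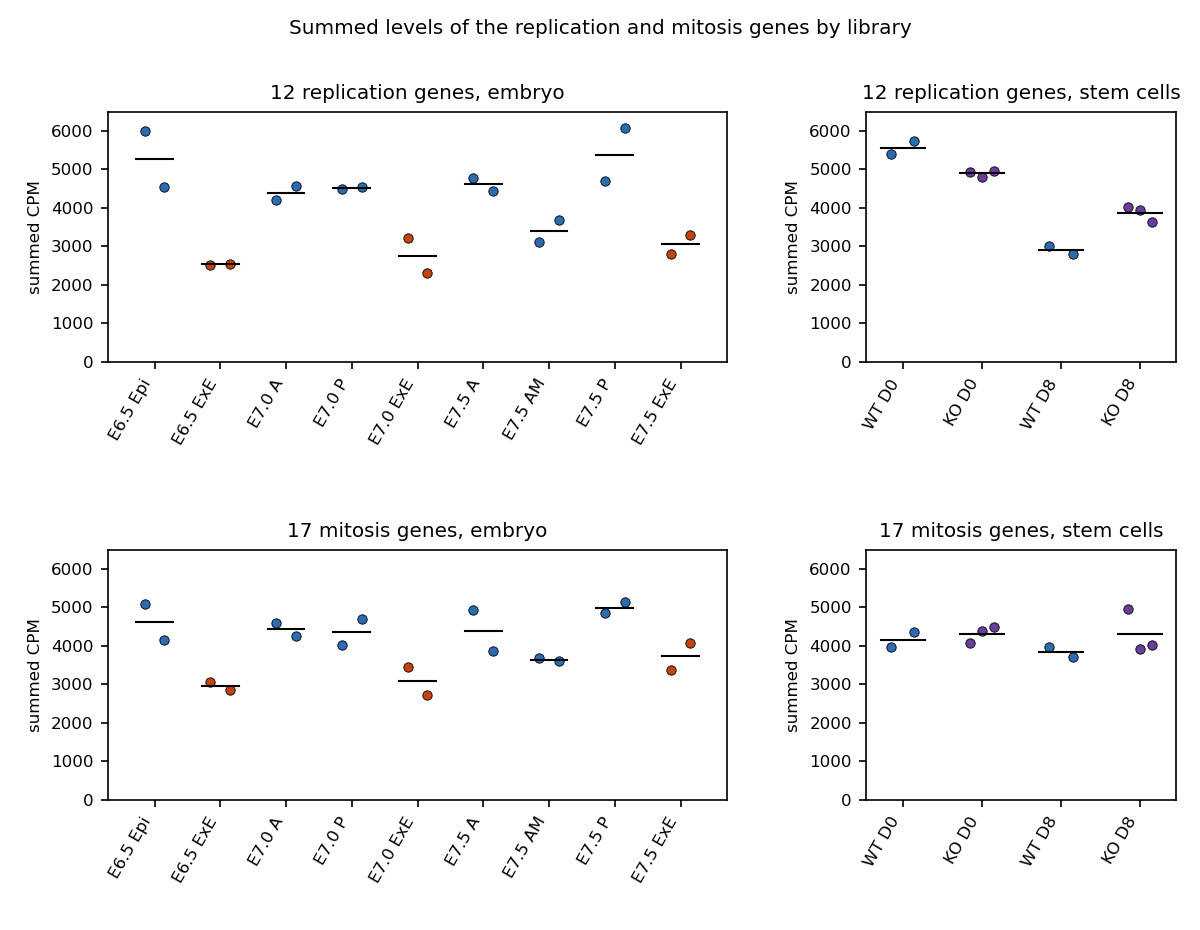
Summed CPM (vertical axes, starting at 0) of the 12 replication genes (top) and the 17 mitosis genes (bottom) by group in embryo libraries (left) and stem cell libraries (right); each point is a library, red for ExE, purple for KO and blue for the others, and bars are group means. Replication sums of WT cells go from 5396 and 5733 CPM at D0 to 3008 and 2789 at D8, KO cells lie between 3623 and 4021 at D8, and the mitosis sums of KO cells overlap between days.

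Of 38 other replication genes 18 fell and 4 rose in WT (median -0.50, 57.9% called), and 8 fell and 16 rose in KO (median 0.26, 63.2% called). These shares are close to the 57.2% and 64.5% of all genes called. Orc1, the origin subunit whose level cycles, fell in both (log2 -2.12 ± 0.17 in WT and -1.43 ± 0.13 in KO). Rpa1 fell in WT (log2 -1.69 ± 0.14), and Pole, the leading-strand polymerase, fell in KO (log2 -1.26 ± 0.22). Rfc3, a subunit of the clamp loader, rose in both (log2 0.63 ± 0.17 and 1.60 ± 0.14). Of 38 other mitosis genes 10 fell and 6 rose in WT (median -0.04, 42.1% called), and 8 fell and 14 rose in KO (median 0.14, 57.9% called), both below the shares of all genes. Anln, which scaffolds the cleavage furrow, fell in both (log2 -1.40 ± 0.26 and -1.51 ± 0.21), and Pttg1 rose in both (log2 1.07 ± 0.32 and 1.20 ± 0.26). Of 15 drivers 7 fell and 3 rose in WT (median -0.28, 66.7% called) and 6 fell and 3 rose in KO (median -0.32, 60% called), with Mybl2 falling from 1160 and 936 CPM to 47.5 and 65.1 in WT (log2 -4.22 ± 0.29) and by a log2 change of -3.98 ± 0.23 in KO. Of 14 inhibitors 8 rose and 5 fell in WT (median 0.80, 92.9% called) and 8 rose and 4 fell in KO (median 0.43, 85.7% called). Cdkn1c rose from 7.78 and 4.05 CPM to 346 and 417 in WT (log2 5.99 ± 0.38) and from 6.09, 6.17 and 7.04 to 113, 222 and 207 in KO (log2 4.80 ± 0.30). Cdkn2a, which restrains Cdk4 and Cdk6, fell in WT (log2 -2.54 ± 0.25), and Cdkn1a fell in KO (log2 -0.95 ± 0.33). With total counts the other replication genes of WT gave 11 lower and 6 higher and the other mitosis genes 7 lower and 10 higher. Without the third D0 library of KO the other replication genes gave 8 in each direction.

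The third question was whether the Enh9E-deleted cells differ from WT in these genes. At D0 no member passed by edgeR or by DESeq2 (0.273% of all genes called, 0.185% higher and 0.0889% lower), with 4 members at an unadjusted p under 0.05. The smallest were Aurkb (log2 0.39 ± 0.13, unadjusted p = 0.0116, edgeR adjusted p = 0.211) and Cdt1 (log2 -0.41 ± 0.15, unadjusted p = 0.0206, edgeR adjusted p = 0.257). When D0 libraries alone were fitted 8 passed: Aurkb and Top2a higher, and Cdt1, Mcm5, Mcm6, Mcm7, Pcna and Rrm2 lower in KO.

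At D8, 7 members were higher in KO and 0 lower (20%, against 20.8% of all genes, 12.5% higher and 8.24% lower). They were the replication genes Cdc6, Gmnn, Pcna and Mcm3 and the mitosis genes Cdk1, Aurkb and Ccnb1. Cdc6 (chr11:98907709-98923942) was at 57.5 and 64.3 CPM in WT and 144, 129.5 and 139 in KO, 2.26-fold higher (log2 1.17 ± 0.13, edgeR adjusted p = 9.44e-04). Gmnn was at 60.9 and 73.7 CPM in WT and 102, 167 and 119 in KO (log2 0.94 ± 0.20, edgeR adjusted p = 0.00961). Pcna was at 429.9 and 445 CPM in WT and 578, 1065 and 758 in KO (log2 0.87 ± 0.22, edgeR adjusted p = 0.0211). For these 3 genes every KO library lay above both WT libraries, with KO spread widest for Pcna and narrowest for Cdc6. Mcm3 was at 223 and 206 CPM in WT and 387, 365 and 341 in KO, also without overlap (log2 0.77 ± 0.14, edgeR adjusted p = 0.00404). Cdk1, Aurkb and Ccnb1 differed by log2 0.68 ± 0.18, 0.49 ± 0.13 and 0.44 ± 0.14. The D-type cyclins did not pass (log2 -0.64 ± 0.27 for Ccnd1, -0.12 ± 0.32 for Ccnd2 and -0.50 ± 0.18 for Ccnd3), and the 28 that did not pass ran from -0.64 for Ccnd1 to 0.50 for Mcm2.

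The median of the 35 was 0.19 against 0.02 over all genes, and with total counts it was -0.02 against -0.18. That scaling gave 4 calls higher and 1 lower (Ccnd3), DESeq2's size factors gave 5 and 1 (Ccnd3), and the DESeq2 test gave 6 and 2 (Ccnd1 and Ccnd3). Cdc6 passed under each of the 12 alternatives (log2 0.97 to 1.20). The count went to 1 (Cdc6) without the first WT library, 2 without the second, 3 without the third KO library, 1 when D8 libraries alone were fitted, and 8 higher and 5 lower (Ccnd1, Ccnd3, Rrm2, Bub1b and Mki67) without the first KO library.

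KO libraries also carried shifts of whole chromosomes. Median log2 differences of KO minus WT were 0.47 at D0 and 0.50 at D8 for genes on chromosome 14, 0.30 and 0.45 on chromosome 6, and 0.20 and 0.23 on chromosome 11, which holds Cdc6, Aurkb and Top2a. On chromosome 8, which holds Cdt1 and Mcm5, they were -0.15 and -0.06. Less the median of its own chromosome, Cdc6 stood at 0.94 at D8, Gmnn at 0.95, Pcna at 0.92, Cdk1 at 0.71, Mcm3 at 0.69, Ccnb1 at 0.45 and Aurkb at 0.26. The same was done at D0, in the fit of all libraries, for genes that passed when D0 libraries alone were fitted. Aurkb then stood at 0.198 and Top2a at 0.105. Cdt1 stood at -0.258, Mcm5 at -0.146, Mcm6 at -0.349, Mcm7 at -0.257, Pcna at -0.413 and Rrm2 at -0.418. As KO cells carried both Enh9E deletion and these shifts, the 2 cannot be told apart.

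The change from D0 to D8 itself differed between KO and WT for 3 members (8.57%, against 5.76% of all genes, 3% higher and 2.76% lower), in a test that shares its libraries with the comparisons above. These were Pcna (log2 1.29 ± 0.31, edgeR adjusted p = 0.0386), Gmnn (log2 1.25 ± 0.28, edgeR adjusted p = 0.0317) and Cdc6 (log2 1.14 ± 0.18, edgeR adjusted p = 0.011), each higher at D8 relative to D0 in KO. DESeq2 called 5, adding Mcm3 and Mcm5. Leaving out 1 of the 10 libraries gave between 0 and 9 calls, with 0 without the first D8 library of WT, either D0 library of WT or the third D0 library of KO, and 9 without the first D8 library of KO.

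**Figure D4:**
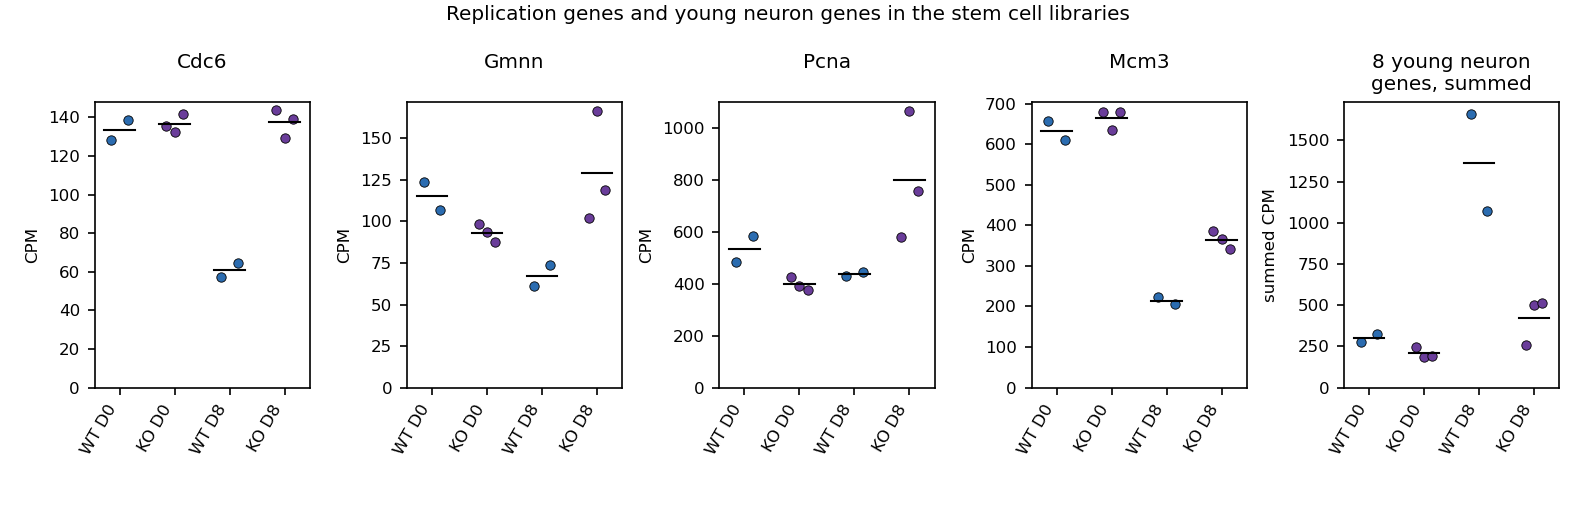
Levels in CPM (vertical axes, starting at 0) of Cdc6, Gmnn, Pcna and Mcm3, and the summed CPM of 8 young neuron genes, by group in the 10 stem cell libraries; points are libraries, blue for WT and purple for KO, and bars are group means. All KO D8 points lie above the WT D8 points in the 4 gene panels and below them in the young neuron panel, where WT stood at 1659 and 1070 CPM and KO between 257 and 516.

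Other replication genes were also called higher in KO at D8. Of the 38 in that list 20 were higher and 0 lower (52.6%, against 20.8% of all genes called and 12.5% called higher, with a median of 0.59 against 0.02 over all genes). The 20 became 8 with total counts, 1 without the first WT library, 8 without the second, 13 without the second KO library, 9 without the third, and 2 when D8 libraries alone were fitted. Rpa3, the small subunit of the single-strand binding protein, was at 45.5 and 48.0 CPM in WT and 72.8, 171 and 99.3 in KO (log2 1.29 ± 0.28, edgeR adjusted p = 0.0107), and Dut at 78.8 and 118 and 129, 254 and 163 (log2 0.89 ± 0.26, edgeR adjusted p = 0.0335). No KO library overlapped WT for either gene. For genes of the wider lists the chromosome medians were not subtracted, so shifts of whole chromosomes may enter their counts and fold changes. Of 38 other mitosis genes 4 were higher and 1 lower (13.2% called, median 0.13), with the checkpoint gene Mad2l1 at 106 and 93.9 CPM in WT and 198, 249.9 and 219 in KO (log2 1.15 ± 0.16, edgeR adjusted p = 0.00193), Cenph higher (log2 0.96 ± 0.21) and the phosphatase Cdc25b lower (log2 -1.05 ± 0.20). Of 15 drivers Tfdp2 was lower (log2 -0.99 ± 0.25), the list having 6.67% called and a median of -0.07. Of 14 inhibitors (14.3% called, median -0.09) Cdkn1c was lower at 113, 222 and 207 CPM in KO against 346 and 417 in WT (log2 -1.08 ± 0.26, edgeR adjusted p = 0.017), and Cdkn2a was higher (log2 1.15 ± 0.23). At D0, 1 gene of the 4 lists passed, Cdkn1b, higher in KO (log2 0.94 ± 0.16, edgeR adjusted p = 0.0489), a call lost without any 1 library (adjusted p up to 0.554).

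Sums of some marker lists differed between the same D8 libraries, in part through single genes. Young neuron genes summed to 1659 and 1070 CPM in WT and 257, 498 and 516 in KO, and all of the 8 but Nefl lay lower in every KO library. Neural progenitor genes summed to 896 and 925 CPM in WT and 523, 479.9 and 629 in KO. Of these 5, Nes (500.2 and 319 in WT, 134, 147 and 188 in KO), Msi1 and Hes5 lay lower in every KO library, while Sox1 (59.0 and 174 in WT, 138, 130.4 and 134 in KO) and Pax6 (69.9 and 143 in WT, 103, 105 and 150.3 in KO) overlapped. Pluripotency genes summed to 56.3 and 114 CPM in WT and 248, 153 and 173 in KO, but of the 6 only Klf4 separated KO (49.1, 98.9 and 134) from WT, where both libraries lay lower (the first at 6.65), and the other 5 overlapped. Visceral endoderm genes, low in these cells, summed to 11.8 and 11.4 CPM in WT and 33.9, 53.9 and 55.1 in KO, with Ttr at 1.77 and 1.93 in WT and 6.87, 26.2 and 24.6 in KO. The first KO library was lowest of the KO libraries for young neuron genes and had the highest summed mitosis level at D8, 4955 CPM. The part of these cell types in the higher replication genes of KO was not tested.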

How the data were processed

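RNA was measured in 28 libraries, 18 of embryo parts and 10 of stem cells. Poly-A RNA went into Nextera XT libraries for embryos and into NEBNext libraries for cells, per the labels' protocols. The deposited values are read counts per gene, raw counts in 1 table per experiment. TopHat2 2.0.9, BWA, CASAVA 1.8 and the mm10 build appear, without roles, in the submitters' processing notes. Counter, annotation and strand setting: not given in the sources used here. Antisense and overlapping genes could therefore not be separated. Of the embryo columns, 6 matched no sample and were not used.

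Each table was fitted whole, with no replicate term, by edgeR 4.0.16's robust quasi-likelihood test in R 4.3.3 (limma 3.58.1), after TMM scaling and filterByExpr (minimum count 10, minimum total 15), which kept 14403 embryo and 14629 cell genes of 23154. A call is a Benjamini-Hochberg adjusted p under 0.05 over all genes tested. Means over regions weighted each region equally. Total counts ran from 5.15 to 17.1 M in embryos and from 5.96 to 13.2 M in cells, and replicates differed beyond counting noise (chi-square per degree of freedom 3.78 to 135). The alternatives were DESeq2 (1.42.0) size factors and test, total counts, no filter, 20 counts in 2 libraries, compared groups only, a replicate block and each library left out. Same-numbered libraries deviated together from their group means among the E7.0 groups (r from 0.136 to 0.321) and among A, AM and P of E7.5 (0.363 to 0.563), though not throughout the table, and the labels name no shared litter or day. Subtracting each chromosome's median, done for the members only, was added after the data were seen. The procedure was tested on simulated data.

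The members and lists were chosen with earlier results of these data known. Library values are given for the 3 called members with the largest change in each direction of a comparison, for members called against the majority and for the D-type cyclins. From the wider lists the 2 called genes with the largest change in each direction are named, and where no member passed, the 2 with the smallest p. The other measurements of the series were not analysed here.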

Additional observations from a re-analysis of the deposited data

Results flagged for a closer look

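The size of a change differed between groups, by a test of the difference itself, for 1 of the genes named here in embryos and 10 in cells. In embryos it was Ccnd1, whose gap between ExE and the embryonic part was smaller at E7.5 than at E6.5 by log2 3.70 ± 0.49, edgeR adjusted p = 0.00551, a call lost without either E6.5 ExE library. In cells the change from D0 to D8 was higher in KO than in WT for Pcna (log2 1.29 ± 0.31, edgeR adjusted p = 0.0386), Gmnn (log2 1.25 ± 0.28, edgeR adjusted p = 0.0317) and Cdc6 (log2 1.14 ± 0.18, edgeR adjusted p = 0.011). The same held for Dut (log2 1.5 ± 0.35, edgeR adjusted p = 0.0372), where WT went from 185 and 188 CPM to 78.8 and 118 and KO from 122, 123 and 121 to 129, 254 and 163, and for Tk1, the thymidine salvage kinase (log2 1.18 ± 0.20, edgeR adjusted p = 0.014). Both belong to the other replication genes, of which 11 of 38 were higher and 0 lower in this test (28.9%, against 5.76% of all genes). The kinetochore genes Cenph (log2 1.20 ± 0.29, edgeR adjusted p = 0.0395) and Spc24 (log2 1.16 ± 0.23, edgeR adjusted p = 0.0235) were higher too, and the phosphatase gene Cdc25b was lower (log2 -1.67 ± 0.28, edgeR adjusted p = 0.015). Of the inhibitors, Cdkn2a was higher (log2 1.97 ± 0.31, edgeR adjusted p = 0.0118) and Rb1, the retinoblastoma gene, lower (log2 -1.63 ± 0.32, edgeR adjusted p = 0.0235). Without the second D0 library of WT the 10 cell calls were lost, with adjusted p from 0.0732 for Cdkn2a to 0.18 for Pcna.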

How the results depend on the processing

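Across the 15 comparisons no value changed sign while called. Of 2504 alternative values of 195 named gene results (168 called), 2080 kept direction and side of the threshold, 397 no longer passed, 17 newly passed and 10, which had no call to keep, moved by more than their spread; of 193 alternative medians 14 moved. Numbers of members called, where they moved by over 1.5 times, were as follows, the cause not tested. For ExE minus the embryonic part, E6.5 (7) gave 4 with total counts, 17 by DESeq2, 21 in the compared groups only and 1 to 6 with single libraries left out. E7.0 (7) gave 4 with total counts, 2 in the compared groups only and 1 to 12 with libraries left out, and E7.5 (12) gave 0 to 13. P minus A at E7.5 (0) gave 1 with no filter, and AM minus P (0) gave 1 by DESeq2. The embryonic part over time (1) gave 0 with any library left out, ExE over time (2) gave 1 to 2, and the difference between them (1) gave 2 by DESeq2, with no filter and in the compared groups only, and 0 to 1 with libraries left out. WT over time (27) gave 16 to 22 with libraries left out and KO over time (24) gave 18 to 24. KO minus WT at D0 (0) gave 8 and at D8 (7) gave 1 in the compared groups only, and D8 gave 1 to 13 with libraries left out. The difference of differences (3) gave 5 by DESeq2 and 0 to 9 with libraries left out.

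With a replicate block E6.5 gave 15 calls, E7.0 10, E7.5 14, the embryonic part over time 1, ExE over time 2, their difference 1, WT over time 26, KO over time 23, D8 6 and the difference of differences 3, with 0 elsewhere. The pairing check was mixed: of 72 pairs of same-numbered embryo libraries 40 correlated above 0.1 in their deviations from group means (-0.0984 to 0.563), and of 13 cell pairs 3 did (-0.0408 to 0.17). In a group of 2 libraries the deviations mirror each other. Each embryo value was therefore counted once for either replicate number, and the 72 pairs are not independent. The block, 1 term for the replicate number over a whole table, also ended the calls of Bub1b in WT over time, Cenpf in KO over time, Cdkn1b at D0 (adjusted p = 0.136, the highest of these), Ccnb1 and Aurkb at D8 and Cenph in the difference of differences, and called Ccnd3 at D8. At E6.5 the block also called Mcm4, Mcm5, Mcm7, Pcna, Bub1, Bub1b, Ccnb1 and Tpx2 lower in ExE. It added Mcm4, Rrm1 and Kif11 at E7.0, and Mcm5 and Kif11 at E7.5, all lower in ExE. Some calls of the wider lists changed as well, such as Dut, newly lower in the embryonic part over time, and Rb1, newly lower in KO at D8.

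Depth limited single genes most where counts were lowest, with 4 counts of Ccnd2 in 1 E6.5 ExE library and 8 in 1 WT D0 library.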
